A study of Caenorhabditis elegans with 4 samples.

Results

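LSY-2 regions on chromosome V of Caenorhabditis elegans were taken from 3 deposited peak lists of chromatin immunoprecipitation and sequencing (ChIP-seq), which maps the DNA that a protein occupies. The regions were defined by position: every interval listed on V in replicate 1, replicate 2 or the combined list was taken, and intervals sharing 1 bp or more were joined. This gave 279 regions on V out of 1926 on all 6 chromosomes. They came from 130 intervals of replicate 1, 155 of replicate 2 and 275 of the combined list. No measured value was used to choose them, other than the threshold by which each list was made.

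All samples came from strain OP240, which carries unc119(ed3) and the transgene wgIs240, in which lsy-2 is fused to TY1 EGFP FLAG beside a copy of unc119. These were hermaphrodites of the L4 larval stage, grown at 20 degrees. The transgene was introduced by bombardment, the strain was outcrossed 3 times, and no change of the worm's own lsy-2 gene is given in the genotype. The series holds 2 ChIP libraries, made with a goat polyclonal antibody to EGFP, and 2 libraries of input chromatin of the same strain, and the input libraries were not analysed here. The samples include no worms without the tag. The labels do not say if the libraries numbered 1 and 2 are of separate cultures, and their agreement may be technical.

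LSY-2, a transcription factor with zinc fingers, is best known for its part in making the left and right ASE taste neurons different, where it acts upstream of lsy-6, a microRNA whose gene lies on chromosome V. Worm autosomes have a gene-dense central part in which recombination is rare and arms on both sides in which recombination is frequent. The arms of V are known for large, rapidly changing gene families, among them many chemoreceptors. Chromatin of whole larvae pools all cells, so occupancy in few cells and weak occupancy in many cannot be told apart. The lists hold positions in build WS180 and a q value for each interval. Genes beside the regions and their sequence were not analysed here, because the gene table given uses coordinates of a different build. The depth of the libraries is unknown.

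The regions crowded into the middle of V and were sparse in both arms. The centre, here the middle 50% of the span up to the end of the last listed interval (20.8 Mb), held 204 of the 279 regions, or 73.1% (exact Clopper-Pearson 95% interval 67.5 to 78.2). Over all chromosomes, V included, the background share was 59%. The other chromosomes ranged from 49.7% on X to 63.9% on I (58.2 to 69.2). The intervals of I and of III (62.7%, 57.4 to 67.8) overlap that of V. The left arm of V held 33 regions, or 6.33 per Mb (exact Poisson 95% interval 4.36 to 8.89), and the right arm held 42, or 8.06 per Mb (5.81 to 10.9). In the centre there were 19.6 per Mb (17.0 to 22.5), so its interval lies above those of both arms, which overlap each other. These intervals treat regions as independent and cover counting error only. Neighbouring regions are not independent, so the differences were not tested and the intervals may be too narrow.

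Each list showed the same crowding. In replicate 1 the centre held 90 of 130 peaks (69.2%, 95% interval 60.5 to 77.0). Replicate 2 had 116 of 155 there (74.8%, 67.2 to 81.5), and the combined list had 199 of 275 (72.4%, 66.7 to 77.6). Among the 107 regions held by both replicates the share was 67.3% (57.5 to 76.0). It was 72.4% (63.3 to 80.3) among the 116 regions that the combined list alone held. The central share was thus above 50%, with its whole interval, in every list and in both of these classes. For regions of both replicates, however, the interval includes 59%, the share of all regions over all chromosomes. In this class the other chromosomes ranged from 44.4% (X) to 66% (III). The other autosomes together had 61.3%, not far below V.

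**Figure D1:**
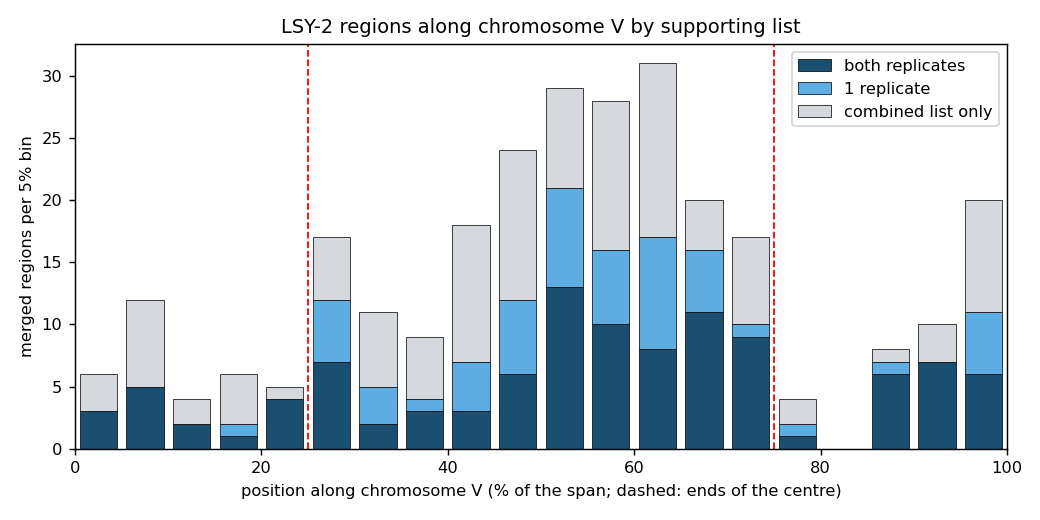
Number of merged LSY-2 regions in 20 bins of 5% of the span of chromosome V, split by the lists that hold them; dashed lines mark the ends of the centre. The tallest bin, from 60 to 65%, holds 31 regions and the bin from 80 to 85% holds 0.

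Within the centre the regions leaned to its right. The stretch from 40 to 75% of the span held 167 regions, or 22.9 per Mb (exact Poisson 95% interval 19.6 to 26.6). From 25 to 40% there were 37, or 11.8 per Mb (8.33 to 16.3). The densest run was from 50 to 65% of the span, with 88 regions and 28.1 per Mb (22.6 to 34.7). Its replicate 1 peaks numbered 37 and its replicate 2 peaks 52. The stretches were chosen after their counts were seen, and they are given as a description.

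The right arm was itself uneven, as the plot of bins along V shows. Between 75 and 85% of the span it held 4 regions, or 1.92 per Mb (exact Poisson 95% interval 0.523 to 4.91). From 85% to the end there were 38, or 12.2 per Mb (8.60 to 16.7), close to the density of the left part of the centre. The last 5% alone held 20 regions, 6 of them in both replicates, against 10 and 7 in the 5% before it. Peaks of the combined list rose there from 10 to 21. Replicate 1 had 8 peaks in each of these bins and replicate 2 had 7 and 9, so the rise was mainly one of the combined list. No such rise was seen at the left end, where the first 5% held 6 regions, 3 of them in both replicates. The first region of V began at 7931 and the last ended at 20841394.

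**Figure D2:**
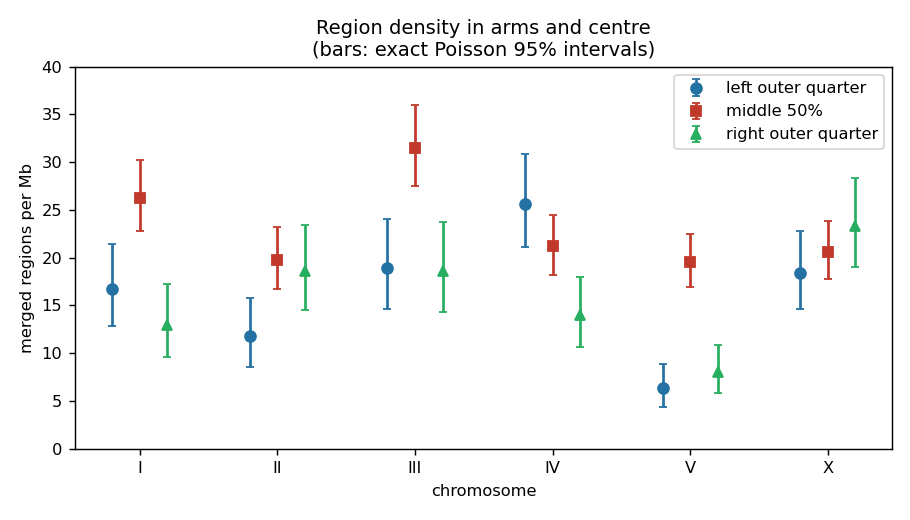
Merged LSY-2 regions per Mb in the left outer 25%, the middle 50% and the right outer 25% of each chromosome, with exact Poisson 95% intervals. On chromosome V both arms lie lower (6.33 and 8.06) than either arm of any other chromosome, while its centre (19.6) is close to those of II, X and IV.

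With all regions counted, the low number of regions on V lay mainly in its arms. The whole chromosome held 13.4 regions per Mb (exact Poisson 95% interval 11.9 to 15.1), against 20.8 (19.7 to 22.0) on the other autosomes together. In the left arm V had 0.342 times the density of the other autosomes' left arms, which was 18.5 per Mb, and in the right arm 0.506 times theirs, which was 15.9. In the centre it had 0.802 times their 24.4 per Mb. The lowest other left arm was that of II at 11.8 (8.60 to 15.8) and the lowest other right arm was that of I at 13.0 (9.62 to 17.2). The centre of V at 19.6 was close to that of II at 19.8, X at 20.6 and IV at 21.2, and lower than that of III at 31.5. Among regions of both replicates, V had 2.88 per Mb in the left arm, 6.91 in the centre and 3.84 in the right arm. The other autosomes together had 5.72, 9.78 and 6.63, so in this class the low number did not lie mainly in the arms. The right arm of V was then above the left arm of II, at 3.41. These differences between chromosomes were not tested, since each chromosome is a single case.

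Both libraries and the combined list had few peaks in the arms of V. With the left and right arm added, V had 3.84 peaks per Mb in replicate 1, 3.74 in replicate 2 and 7.29 in the combined list. The other 5 chromosomes ranged from 5.71 to 9.87, from 6.77 to 11.2 and from 14.9 to 20.8 in the same lists, so V was lowest in each. For the centre the order was less clear. In replicate 2 the centre of V had 11.1 peaks per Mb, above the lowest other chromosome at 10.9, while in replicate 1 it was the lowest at 8.64 against 8.96 or more. For the right arm alone, replicate 1 had 4.80 peaks per Mb on V, and 1 chromosome was lower at 4.78.

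V had long stretches without any listed interval. The longest ran from 16593440 to 17857809 in the right arm, a gap of 1264 kb that no list broke. On the other chromosomes the longest gap was between 346 kb on III and 520 kb on II. The distance from the end of a region to the start of the next reached 300 kb or more 15 times on V and 1 to 8 times on each other chromosome. Together these 15 gaps took 7.48 Mb, or 35.9% of the span of V.

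Most of the empty stretches were in the arms: 8 in the left arm, 4 in the right arm and 3 in the centre, by the midpoint of the gap. After the longest, the next in length lay at 2695011 to 3391005 (696 kb) and at 17982315 to 18572700 (590 kb). The last of these is separated from the longest gap by 124.5 kb, in which 1 of the 20 best-ranked regions lies. In the centre the longest gap lay at 6891667 to 7434897 (543 kb). Almost as long were a pair in the left arm, at 4508462 to 5049262 (541 kb) and 2134810 to 2672321 (538 kb). The remaining 4 of the 10 longest measured 374 to 450 kb. Of these, 731800 to 1151082 and 1477125 to 1868601 were in the left arm, 15590617 to 16040535 in the right arm and 15137110 to 15511359 in the centre. Absence from a list says only that no interval reached its threshold, and whether reads map equally well to these stretches was not tested.

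With regions of both replicates alone, 21 gaps on V reached 300 kb, against 9 (III) to 18 (II) on each other chromosome. The other spans are shorter than that of V, so V stood out less with these regions than with all. The longest gap elsewhere was 1159 kb, on I. On V the longest was then at 2695011 to 4063192 (1368 kb), a stretch in which 5 less well supported regions lay. The gap around the longest empty stretch grew only from 1264 to 1319 kb (16538455 to 17857809). A central stretch at 6489140 to 7727574 (1238 kb) held 9 regions, none of them in both replicates. Near the right end, 19644304 to 20710537 (1066 kb) held 11 such regions.

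**Figure D3:**
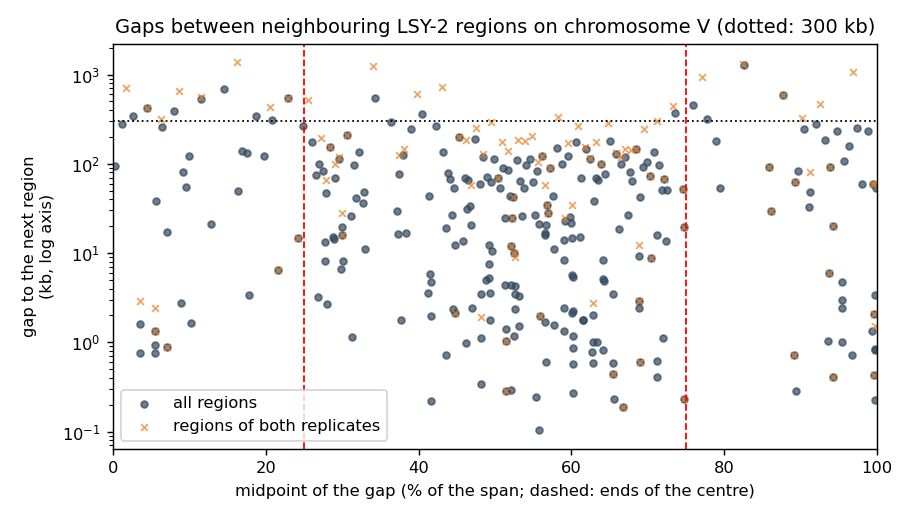
Length of each gap between neighbouring LSY-2 regions of chromosome V (kb, log axis) against the position of its midpoint (% of the span), for all regions and for those of both replicates. Gaps of 300 kb or more (dotted line) number 15 for all regions, 12 of them outside the dashed lines that bound the centre.

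Beside the empty stretches, V also had many regions close together. The median gap on V, empty stretches included, was 22.2 kb (quartiles 2.43 and 92.1). On the other chromosomes it ranged from 14.9 kb (III) to 25.6 kb (II), so V was inside their range. With regions of both replicates alone it was 96.1 kb on V, just above the others, at 52.2 kb (III) to 95.2 kb (II). With all regions, the median gap within V was 19.3 kb in the centre, 81.5 kb in the left arm and 50.7 kb in the right arm. As many as 60 of the 278 gaps were under 2 kb, and the shortest was 103 bp. The lower quartile was 2.56 kb in the centre, 3.36 kb in the left arm and 1.52 kb in the right arm. Gaps under 10 kb numbered 79 of 203 in the centre, 10 of 33 in the left arm and 17 of 42 in the right arm.

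Of the 279 regions, 161 (57.7%) had their midpoint within 10 kb of another's, where the background over all chromosomes was 58.4%. The share was 58.3% in the centre, 51.5% in the left arm and 59.5% in the right arm. Linked in chains, the regions formed 38 groups of 2, 9 of 3, 3 of 4, 6 of 5, 1 of 7 and 1 of 9. Grouping on V was thus near the background and also present in the sparse arms.

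The group of 9 lay in the centre at 12530096 to 12554646 and was weak. A single member, 12550162 to 12550502, was in both replicates, where its −log10 q was 4.51 (replicate 1), 3.82 (replicate 2) and 7.42 (combined list). Its strongest member, 12542577 to 12543371, had 7.82 in replicate 2 and 10.2 in the combined list and was absent from replicate 1. The combined list alone held 6 of the 9.

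The group of 7, at 20772051 to 20786974, lay at the right end of the chromosome and was better supported, with 4 members in both replicates. The strongest of them, 20773338 to 20774541, reached a −log10 q of 10.5 and 15.7 in the numbered lists and 25.6 in the combined list. The 6 groups of 5 had 0 to 2 members in both replicates. In the centre they lay at 8654564 to 8672337, 10951394 to 10965931, 13081097 to 13091809, 13369626 to 13392057 and 13649945 to 13659486, and in the right arm at 19879752 to 19893644. Of the 3 groups of 4, that at 1151083 to 1158846 in the left arm and that at 10711439 to 10723413 in the centre had 3 members in both replicates each. The group at 10039707 to 10048959 had 2. Whether a group is several sites or a broad stretch that was split in calling was not tested.

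Support by the lists on V was like that of the whole series. Both replicates held 107 of the 279 regions, or 38.4% (95% interval 32.6 to 44.3), with a background over all chromosomes of 38.1%. All but 1 of these were also in the combined list. Replicate 1 without replicate 2 held 15 (5.38%) and replicate 2 without replicate 1 held 41 (14.7%). The combined list alone held 116 (41.6%, 35.7 to 47.6), where the background was 43%.

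Taken from each library's side, 114 of the 130 replicate 1 peaks on V were overlapped by replicate 2 (87.7%, 95% interval 80.8 to 92.8). Of the 155 replicate 2 peaks, 112 were overlapped by replicate 1 (72.3%, 64.5 to 79.1). The other chromosomes ranged from 86.7 to 88.5% and from 72.8 to 75.9%. V lay inside the range for replicate 1 and just below it for replicate 2. In replicate 2 the overlapped share was 66.4% (57.0 to 74.9) in the centre and 89.7% (75.8 to 97.1) in the arms. In replicate 1 it was 86.7% and 90%, nearly equal. These intervals treat neighbouring peaks of 1 pair of libraries as independent, so the difference in replicate 2 was not tested. Of the 41 regions of replicate 2 that replicate 1 lacked, 37 were in the centre and 4 in the arms. The centre held 74.8% of all replicate 2 peaks on V.

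Peaks without a partner in the other library began some way down each list. All of the 40 strongest replicate 1 peaks on V and all of the 40 strongest replicate 2 peaks had a partner in the other list (lower 95% bound 91.2%). The strongest replicate 1 peak without one was number 80 of its list on V, in the region 6879384 to 6880073, with a −log10 q of 5.32. For replicate 2 it was number 57, in 12465123 to 12466087, with 8.38, above the median of that list on V (6.55), and the combined list gave this region 13.5. Of the replicate 2 peaks ranked 41 to 80 on V, 34 of 40 had a partner. The next regions of replicate 2 without replicate 1 were 8936070 to 8937487 (7.87), 12542577 to 12543371 (7.82), 12302979 to 12303913 (7.34) and 5838735 to 5840547 (7.24). All 5 lay in the centre and all were in the combined list. Those of replicate 1 without replicate 2 continued with 16355752 to 16356357 (5.25), 18639324 to 18640153 (4.83), 7776034 to 7776438 (4.73) and 9561372 to 9562185 (4.65).

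Paired peaks had nearly the same place in both libraries. Over 116 overlapping pairs on V the midpoints differed by a median of 62.75 bp (quartiles 26.4 and 131). The shared bases were a median of 77.4% of the bases that either peak covered (quartiles 64.6 and 86.4). No pair had identical ends. Spearman's rho of −log10 q over the pairs was 0.76, with 0.74 over the 80 central pairs and 0.81 over the 36 in the arms. On the other chromosomes it ranged from 0.82 to 0.89, so V had the lowest value. This depends on how peaks are paired: with reciprocal overlap of at least 50%, rho on V was 0.83. The other chromosomes were not computed in that way. These are descriptions across peaks of 1 pair of libraries and were not tested.

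**Figure D4:**
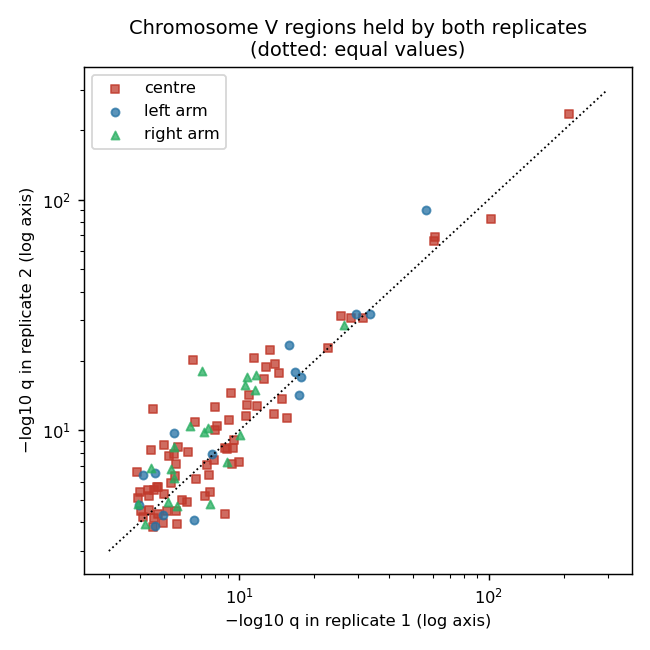
The −log10 q in replicate 1 against replicate 2 (both on log axes) for the 107 chromosome V regions held by both, marked by part of the chromosome. The strongest region reaches 211 and 235 and the weakest values are near 3.9 and 3.8, and 68 of 107 points lie above the dotted line of equal values.

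The strongest region of V, 11763199 to 11765972 in the centre, stood far above the rest. Its −log10 q was 211 for replicate 1 and 235 for replicate 2, each more than 2 times that of the next region in its library. The combined list held no interval there, and this was the only region of both replicates on V that it lacked. The same was seen elsewhere: the strongest replicate 2 peaks of III, IV and X, at 274, 289 and 187, had no combined interval either. The neighbours of the V region were in the combined list. To the right, 11782660 to 11783118 had 4.57 there, and 11887757 to 11890028 had 36.0, beside 13.3 and 22.4 in the numbered lists.

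Next in mean rank was 6220819 to 6230264, at 9446 bp the widest region of V. Each replicate divided it, and they divided it differently. Replicate 1 listed 6220959 to 6222190 with a −log10 q of 12.6 and 6222430 to 6230026 with 102. Replicate 2 listed 6220862 to 6225752 with 82.8 and 6226015 to 6230086 with 62.6. The combined list held a single interval with 274, the highest of its whole list on V. Nearby in the same part of the centre, 6246226 to 6248025 had 12.6, 16.7 and 29.0 in replicate 1, replicate 2 and the combined list, and 6275993 to 6278512 had 11.5, 20.6 and 41.8.

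In the left arm the strongest region was 723681 to 728340, 4660 bp wide, which lay between empty stretches of 342 and 419 kb. Its −log10 q was 56.2 for replicate 1, 90.3 for replicate 2 and 139 for the combined list. The difference between replicates was larger here than in 2 central regions of similar rank. At 9342867 to 9345253 the values were 61.1, 69.0 and 120, and at 9730677 to 9732416 they were 60.2, 65.9 and 109.5. These 5 regions were the only ones on V above 50 in either replicate.

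Regions of middle strength followed, several of them in the left arm. In the left arm, 2694140 to 2695010 had 33.4 (replicate 1), 32.0 (replicate 2) and 62.4 (combined list). It is followed at once by an empty stretch of 696 kb. The region 1151083 to 1152088 had 29.3, 32.1 and 53.8 in the same order. It opens a group of 4 that also holds 1157367 to 1158846, with 17.3, 14.2 and 32.1. The first region of the chromosome, 7931 to 9336, had 17.7, 17.1 and 37.6. Further left-arm regions among the 20 best-ranked were 5049263 to 5050126 (15.8, 23.4 and 36.4) and 4506399 to 4508461 (16.7, 18.0 and 37.6), which bound the empty stretch of 541 kb on its right and left.

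In the right arm a single region was among the 20 best-ranked. It was 17981458 to 17982314, with 26.3 (replicate 1), 28.7 (replicate 2) and 48.8 (combined list). It lies just before the empty stretch of 590 kb. Of the 20, 12 were thus central, 7 in the left arm and 1 in the right arm. The left arm held 15 of the 107 regions of both replicates and the right arm 20.

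The remaining central regions of the 20 were less strong. The region 9545168 to 9547843 had 31.3, 30.6 and 71.5, and 14685348 to 14687932 had 28.1, 30.7 and 54.8. At 15511360 to 15513607 the values were 25.7, 31.3 and 56.8. The replicates were nearly equal at 12317932 to 12318722, with 22.6, 22.8 and 47.8. The last 3 were higher in replicate 2: 10711439 to 10716727 with 13.9, 19.3 and 61.9, then 13907538 to 13909017 with 14.5, 17.7 and 26.1, then 10466403 to 10467559 with 12.9, 18.9 and 30.7. The numbers are the −log10 q in replicate 1, replicate 2 and the combined list. Replicate 2 was higher in 15 of the 20 and in 53 of the other 87 regions of both replicates.

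The region 10711439 to 10716727, 5289 bp wide, was the next widest of V and was also divided differently. Replicate 1 listed 3 peaks in it, the strongest at 10712027 to 10712955 with 13.9. Replicate 2 listed 2, the stronger at 10711879 to 10713229 with 19.3. The combined list joined them into 1. Such regions were few: 10 of the 279 held more than 1 peak of some list, 9 of them with a single combined interval, and 8 of the 10 were central. The other wide regions were 14364088 to 14367417 (3330 bp) and 15567655 to 15570560 (2906 bp).

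A few regions ranked very differently in the libraries. They were picked after their values were seen. At 9789775 to 9790419 replicate 1 gave a −log10 q of 4.50 and replicate 2 one of 12.4, rank 93 and rank 35 of 107. At 10718853 to 10720493 the order was opposite, with 8.75 and 4.32 and ranks 44 and 98. At 13089650 to 13091809, in a group of 5, it was 6.50 and 20.2, with ranks 61 and 16. Replicate 1 listed 2 peaks in this last region where replicate 2 listed 1.

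Strength and width went with support. The median width was 912 bp (quartiles 676.5 and 1548.5) for regions of both replicates, 719 bp for those of replicate 2 without replicate 1 and 606 bp for those of replicate 1 without replicate 2. The regions of the combined list alone had 478 bp (quartiles 354 and 710.75). Their median −log10 q in the combined list was 4.82, against 15.4 for regions of both replicates. Merging makes a region at least as wide as its widest peak, so regions of more lists are wider in part by construction. Regions of the combined list alone reached neither replicate's threshold, so their lower −log10 q is also in part by construction. The highest of the regions that the combined list alone held was 19334071 to 19335093, with 10.6, followed by 10048137 to 10048959 with 9.15 and 9095545 to 9096247 with 8.36. Further ones were 10721889 to 10723413 with 7.72 and 13082320 to 13083188 with 7.69. Of these 116 regions, 48 (41.4%) lay within 10 kb of a region that a replicate supported.

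**Figure D5:**
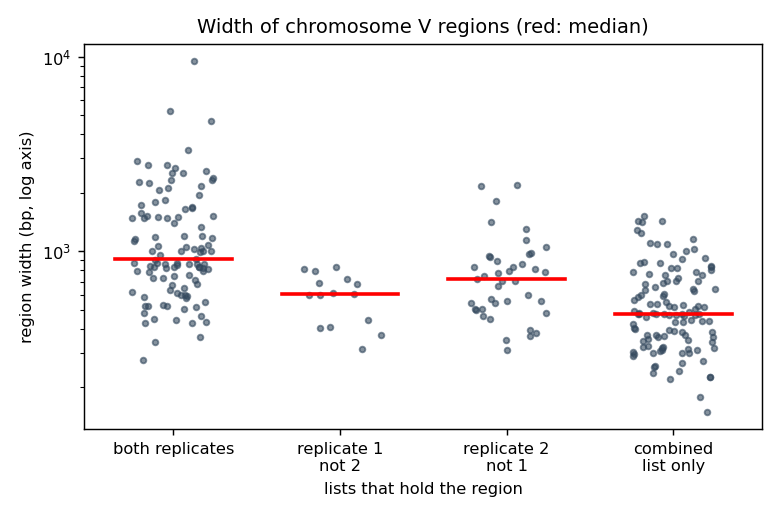
Width of each chromosome V region (bp, log axis) by the lists that hold it, with the median in red. Medians are 912 bp for both replicates, 606 bp for replicate 1 without 2, 719 bp for replicate 2 without 1 and 478 bp for the combined list alone.

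Peaks of the centre, though many, were not stronger than those of the arms. For replicate 1 the median −log10 q was 6.20 in the centre and 6.47 in the arms. For replicate 2 these medians were 6.10 and 7.90, and for the combined list 7.33 and 7.61. By arm, the left and right medians were 7.75 and 5.62 in replicate 1 and 8.81 and 7.26 in replicate 2. In the combined list they were 7.18 and 8.22. The right arm in replicate 1 and the left arm in the combined list were thus below the centre. The median of the centre minus that of the arms was −0.277, −1.80 and −0.278 in this order of lists, beside quartiles of 4.65 and 10.6 in the centre of replicate 2 and of 4.83 and 16.4 in its arms. In the better-ranked 50% of each list the difference kept its sign and was larger, at −2.50, −4.57 and −3.78. That 50% is chosen by the same q value that is compared, so it gives no separate support. Its arms held only 16 peaks in replicate 1 and 20 in replicate 2. By region, 30.4% of the central regions had a −log10 q above 10 in at least 1 list, against 33.3% in the left arm and 47.6% in the right arm. For V as a whole this share was 33.3% (93 of 279), with a background of 36.1%. In replicate 1 alone, 24% of the right-arm peaks were above 10, against 26.7% of those in the centre. In replicate 2 and the combined list the right arm was higher, at 34.8% and 46.5%, than the centre, at 26.7% and 30.7%. Peak widths had medians of 566 bp in the centre and 589.5 bp in the arms in replicate 1, and 622.5 and 757 bp in replicate 2, and of 640 and 703.5 bp in the combined list. In replicate 1 the left arm had 835 bp and the right arm 519 bp, on either side of the centre. In the other 2 lists both arms lay above it. The direction of the width difference between the centre and both arms together turned in both replicates when only the better-ranked 50% of each list was used (913.5 and 790.5 bp in replicate 1, 866 and 811 bp in replicate 2).

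Compared with the other chromosomes, V had the lowest median −log10 q in both replicates. It was 6.30 in replicate 1, where the others ranged from 6.66 to 8.23, and 6.55 in replicate 2, where they ranged from 7.17 to 8.35. In the combined list V had 7.33 and lay inside the range of 6.88 to 7.94. The share of peaks with a −log10 q above 10 was lowest on V in all 3 lists, at 28.5% in replicate 1, 29.7% in replicate 2 and 33.5% in the combined list. These differences were not tested, and the quartiles on V (4.63 and 10.7 in replicate 1) overlap those of every other chromosome.

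Between the extremes, 4 regions rested on replicate 2 alone and were not in the combined list. They were 11616675 to 11617176, 13200694 to 13201074, 10958497 to 10958807 and 14850699 to 14851511, with a −log10 q of 4.18, 4.18, 3.98 and 3.85. All lay in the centre and close to the weakest peak of that list on V, which had 3.80. No region rested on replicate 1 alone.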

How the data were processed

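Per the labels' protocols, worms were crosslinked with formaldehyde and sonicated, and chromatin was collected with antibodies to GFP. Each deposited list gives intervals and, per interval, the q value of the authors' peak caller (PeakSeq, per the source column), in coordinates of WormBase WS180, per the file headers. The first and last base of each interval are 1-based in the deposited lists and were used unchanged. Not given in the sources used here are the aligner, versions, filters, threshold and making of the combined list. A q value mixes enrichment with depth, and whether the lists share a scale is not stated.

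Intervals of the 3 lists sharing 1 bp or more were joined, and each region took the highest −log10 q of each list. The end of the last listed interval stood for the chromosome's length, the centre is the middle 50% and each arm an outer 25%. Regions were placed by midpoint. Shares have exact Clopper-Pearson and densities exact Poisson 95% intervals, for counting error only. No test was run. Regions named are the 20 with the best mean rank over both replicates, the 5 widest, the 10 longest gaps, groups of 4 or more, those absent from the combined list and the 5 highest of each other support class. Others named were chosen after their values were seen. The members and rules were chosen with earlier results of these data known. Counting was tested on simulated data, and 20 of 20 runs returned the planted counts. The planted regions lay well apart and away from the ends of the centre, so close or split peaks were not tried. The software was matplotlib 3.10.9, SciPy 1.17.1, NumPy 2.4.6 and Python 3.11.15. Alternatives are stricter overlap, the better-ranked 50% of each list, each replicate left out, other sets of regions and another centre.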

Additional observations from a re-analysis of the deposited data

How the results depend on the processing

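Of 59 alternatives for 17 results, 42 stayed within the interval, the replicate spread or 1.5 times the reported value. The cause of the other changes was not tested, apart from fewer peaks or a smaller centre by construction. In the better-ranked 50% of each list, V held 139 regions (6.67 per Mb) with a median gap of 65.2 kb, and 32.4% were held by both replicates. Spearman's rank correlation of −log10 q between replicates was 0.86. The central median −log10 q was lower than that of the arms by a larger amount (−2.50 in replicate 1, −4.57 in replicate 2, −3.78 in the combined list). This 50% is chosen by the same q value, so the larger amount gives no separate support. The median width of the centre minus that of the arms reversed to 123 bp in replicate 1 and 55 bp in replicate 2. With regions of both replicates alone, V held 107 regions (5.13 per Mb), with a median gap of 96.1 kb and a central share of 67.3%. The middle 33.3% of the span held 52.3% of the regions, or 1.57 times its share of the span, against 1.46 times for the middle 50%. With reciprocal overlap of at least 50%, 80.8% of replicate 1 peaks were shared and that correlation was 0.83. Leaving out a replicate gave 276 to 279 regions and a central share of 72.5 to 73.1%. The combined list stayed in and alone gave 275 regions, so these values could hardly move and say nothing of stability. The same holds at these settings, and with the combined list alone, for the density, the gaps and the left arm's share of arm regions. All of these are counted among the 42, which is thus no measure of stability. Regions per Mb are the region count over a fixed span, so their alternatives repeat those of the count. No paired analysis was possible because no input list was used here, so no groups were compared. Depth is unknown, so an interval missing from a list was not detectable at that list's threshold and is not shown to be absent.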

Other observations

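In the 106 regions of V held by all 3 lists, the combined −log10 q was above both replicates' values in 105. It was a median of 0.975 times the sum of both (quartiles 0.888 and 1.09). Across peaks of V, width rose with −log10 q in each list, with a Spearman's rho of 0.63 in the combined list, 0.59 in replicate 1 and 0.47 in replicate 2. Peaks within a list share a library, so these are descriptions.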
